A study of Mus musculus with 12 samples.

Results

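UCSF034_000901 and UCSF034_000903 are probes of a custom single-colour Agilent array for microRNAs (miRNAs), and they were examined on all 12 arrays of a study of mouse lung and mammary epithelial cells. These 2 probes, of 2579 on the array after controls were left out, were chosen by their measured pattern: high in adult mammary cells and in both groups of reprogrammed cells, and low in adult lung cells except on 1 array. The names give only a probe's place in the array design, and the tables used here pair neither probe with a miRNA, a sequence or a genome position. The miRNA that each probe detects, and therefore its targets and its known role, cannot be given.

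There were 4 groups with 3 samples in each: adult lung epithelium, adult mammary epithelium, reprogrammed lung epithelial cells and reprogrammed mammary epithelial cells. The adult donors were female mice aged 10 weeks. Their tissue was digested with enzymes and the epithelial fraction was enriched by centrifugation, and no cell sort is named. The series title places the reprogramming in vivo and calls it stroma-dependent, but it is not clear from the labels if the organ in a reprogrammed group's name is where its cells originated or what they became. No strain, genotype or treatment is given for any group, and separate animals are not stated for the replicates. The p-values thus refer to the spread between these samples alone, which may be technical. The epithelial labels could not be checked against marker miRNAs, since no probe is named.

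MiRNAs are short RNAs that guide Argonaute proteins to partly complementary sites in messenger RNAs and so lower the stability or translation of those messages. Many miRNAs are abundant in some epithelia and nearly absent from others, and a miRNA profile is therefore often used as a readout of tissue identity. An array measures each miRNA by hybridisation to several copies of its probe, and in a bulk sample fewer cells of a type and less miRNA per cell cannot be told apart.

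Signal on each array was scaled to a common 75th percentile and given on the log2 scale, where 1 unit is a doubling, with a common floor at 3.41. Before scaling, that percentile ran from 805 to 2963 over the arrays, and 700 to 1006 probes per array were well above background. Of the 2579 probes, 947 were well above background on at least 3 arrays and were tested, both members among them. UCSF034_000901 was well above background on all 12 arrays and UCSF034_000903 on 10.

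In adult lung cells, UCSF034_000901 had a log2 signal of 4.17, 4.93 and 9.94 on replicates 1, 2 and 3. In adult mammary cells it was 12.31, 13.04 and 12.56 on replicates 1, 2 and 4. It was 9.83, 11.04 and 12.52 on reprogrammed lung replicates 1, 2 and 3, and 12.18, 11.61 and 12.68 on reprogrammed mammary replicates 1, 2 and 4. Every adult mammary and reprogrammed mammary array was above every adult lung array, while the lowest reprogrammed lung array lay just below adult lung replicate 3, so those groups overlapped. The group mean was 6.35 ± 3.13 for adult lung and 12.63 ± 0.37 for adult mammary cells (SD, n = 3). It was 11.13 ± 1.35 for reprogrammed lung cells and 12.16 ± 0.53 for their mammary counterpart.

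UCSF034_000903 was at the floor of 3.41 on adult lung replicates 1 and 2 and at 7.20 on replicate 3. Adult lung replicate 3 was the only adult lung array where it was well above background. It was 9.59, 10.68 and 9.89 on adult mammary replicates 1, 2 and 4. It was 7.13, 8.03 and 9.06 on reprogrammed lung replicates 1, 2 and 3, and 9.24, 8.33 and 9.07 on reprogrammed mammary replicates 1, 2 and 4. The arrangement was that of UCSF034_000901: both mammary groups lay above all adult lung arrays, and reprogrammed lung overlapped adult lung through adult lung replicate 3 and reprogrammed lung replicate 1. Adult mammary cells had a mean of 10.05 ± 0.57, reprogrammed mammary cells 8.88 ± 0.49 and reprogrammed lung cells 8.07 ± 0.97 (SD, n = 3). The adult lung mean, 4.67 ± 2.19, depends on the floor.

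**Figure D1:**
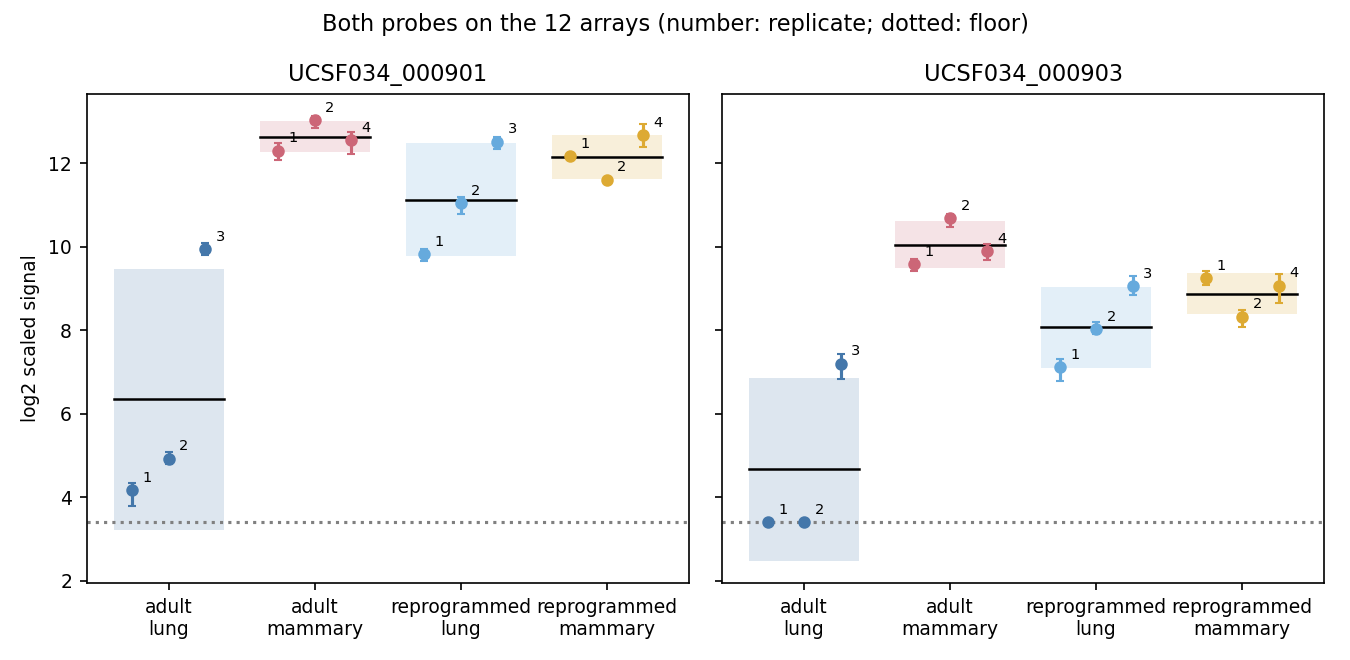
Log2 scaled signal (y axis) of UCSF034_000901 (left) and UCSF034_000903 (right) on each array, grouped along the x axis by sample group. Points are means over the spots of a probe with bars from the lowest to the highest spot, digits are replicate numbers, black lines and shaded bands are group means and SD (n = 3), and the dotted line is the floor at 3.41. Adult lung replicate 3 sits at 9.94 and 7.20, far above the other adult lung arrays and close to reprogrammed lung replicate 1 at 9.83 and 7.13.

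The differences from adult lung are the contrasts by which the probes were chosen, so they are given as sizes with no test. Relative to adult lung, UCSF034_000901 was higher by 6.29 in adult mammary cells, by 4.79 in reprogrammed lung cells and by 5.81 in reprogrammed mammary cells on the log2 scale. The same differences at UCSF034_000903 were 5.38, 3.40 and 4.21. All adult mammary arrays were above all adult lung arrays at both probes, as at 26.5% of the 947 tested. All reprogrammed mammary arrays were above all adult lung arrays at both, as at 35.1% of those tested. All reprogrammed lung arrays were above all adult lung arrays at neither, while this held at 29.8% of those tested. These shares are given for scale, and nothing is read from them because the choice of the probes set the pattern.

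The size of those differences turned on 1 array. Without adult lung replicate 3 the difference at UCSF034_000901 became 8.08 for adult mammary, 6.58 for reprogrammed lung and 7.60 for reprogrammed mammary cells. As a ratio of geometric mean signals, adult mammary was 78.1-fold above adult lung with that array and 271-fold without it. At UCSF034_000903, which was not well above background on adult lung replicates 1 and 2, adult mammary was at least 100-fold above those arrays, reprogrammed lung at least 25.4-fold and reprogrammed mammary at least 44.5-fold. These bounds set each group's mean against the floor, which was higher than the probe's own signal on both arrays. They hold for the signal as processed here. With all adult lung arrays, adult mammary minus adult lung at this probe was 5.38 here and ran from 3.58 to 6.85 over the alternatives. Within slide 1, where adult lung replicates 1 and 2 were hybridised, adult mammary exceeded adult lung by 7.75 at UCSF034_000901. Within slide 2, which carried adult lung replicate 3, the excess was 2.62. For reprogrammed lung the corresponding values on slides 1 and 2 were 7.97 and 1.11, and for reprogrammed mammary 8.13 and 1.67. Slide 3 held no adult lung array.

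Adult lung replicate 3 exceeded the higher of the other adult lung arrays by 5.01 at UCSF034_000901 and by 3.80 at UCSF034_000903. Against the mean of replicates 1 and 2 its signal was 41.8-fold higher at UCSF034_000901 and, as processed here, at least 13.9-fold higher at UCSF034_000903. On the log2 scale the latter excess was 3.80 here and ran from 1.40 to 6.0 over other ways of processing. All 7 spots of UCSF034_000901 on this array were raised, with processed signals from 1815 to 2207 before scaling, against 22.0 to 32.2 on replicate 1 and 43.2 to 52.9 on replicate 2. The 6 spots of UCSF034_000903 ran from 233 to 353, against 0.722 to 3.78 on replicate 1 and 3.78 to 8.79 on replicate 2. The spots lay from row 10 to row 157 and from column 7 to column 82 for UCSF034_000901, and from row 3 to row 181 and column 20 to column 78 for UCSF034_000903, on a grid of 192 rows and 82 columns. The rise was therefore seen at every copy of both probes across the array.

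The 3 adult lung arrays were otherwise close. Over the 631 probes well above background on every array, replicate 3 correlated with replicate 2 at r = 0.993 and with replicate 1 at r = 0.979, and replicates 1 and 2 correlated at r = 0.980. Over the same probes replicate 3 had a median r of 0.986 with the other adult lung arrays and of 0.921 with the reprogrammed lung arrays. These correlations are across probes of shared arrays and describe them only. The middle 90% of the 947 probes lay between -0.38 and 0.44 for replicate 3 minus the mean of the other adult lung arrays. Replicate 3 was the brightest array of the 12, with a 75th percentile of 2963 against 2308 and 2278 on replicates 1 and 2. It also had the most probes well above background, 1006 against 880 and 851. It was on another slide, and the part of brightness and slide in the rise of the pair was not tested.

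Few other probes shared the rise on adult lung replicate 3. It lay more than 1 above both other adult lung arrays at 11 of the 947 probes (1.16%), and the next probe was at 0.70. Replicate 1 stood above both others by that margin at 11 probes too (1.16%), and replicate 2 at 0 (0%). UCSF034_000901 and UCSF034_000903 had the highest excess, which the choice of a pair raised on 1 adult lung array favoured. They were followed by UCSF034_000894 and UCSF034_000896, which are close to the pair in serial number. UCSF034_000894 had signals of 7.38, 7.44 and 10.08 on adult lung replicates 1, 2 and 3, with means of 7.65 for adult mammary, 7.12 for reprogrammed lung and 7.26 for reprogrammed mammary cells. The others were UCSF034_000347, UCSF034_000343 and 5 probes from UCSF034_000700 to UCSF034_000707, with an excess from 1.45 to 2.03. Of these 9 further probes, 8 were at their highest of all 12 arrays on adult lung replicate 3, which picking them by a high value there favoured. All 9 arrays of the other groups lay above adult lung replicates 1 and 2 at 0 of these probes and at 16.8% of all probes tested. With so few probes nothing is read from that count. At the pair all 9 arrays lay above both, where the choice of the probes set it. These 9 probes were picked out after their values were seen.

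**Figure D2:**
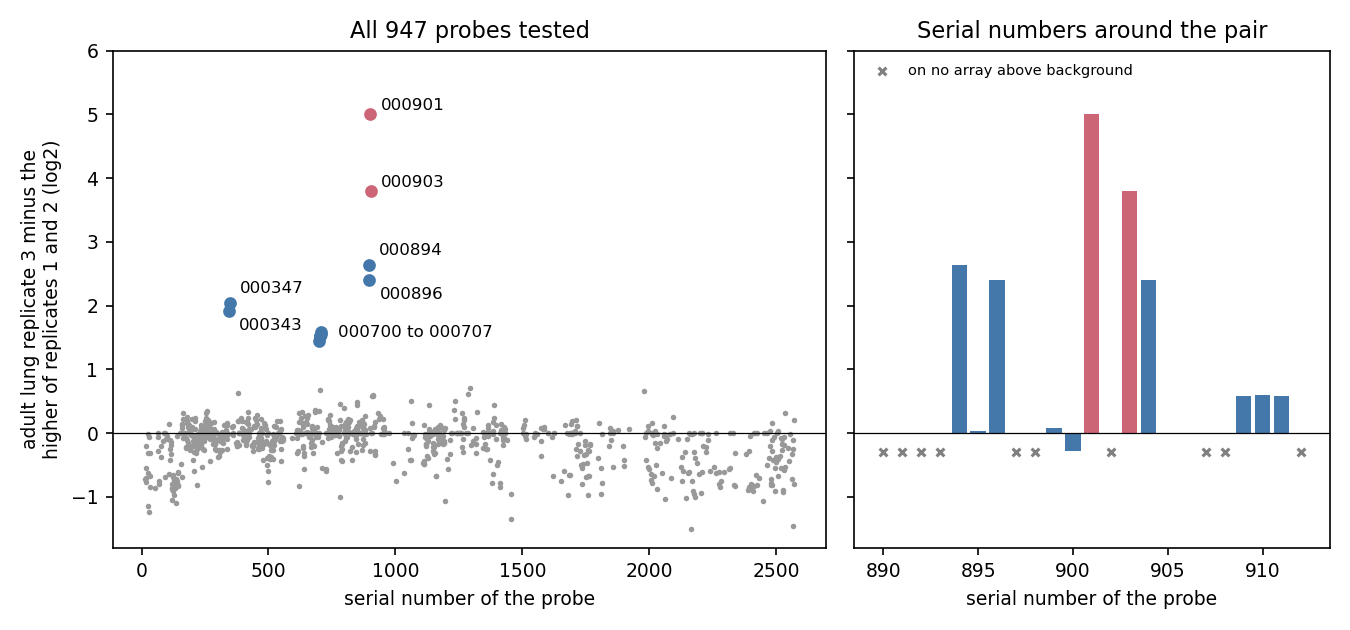
Log2 signal of adult lung replicate 3 minus the higher of replicates 1 and 2 (y axis) against the serial number of the probe (x axis), for the 947 probes tested (left) and for every probe with serial numbers from 890 to 912, tested or not (right). Red marks the pair, blue on the left marks the other 9 probes above 1, and crosses on the right mark probes not well above background on any array. The pair is at 5.01 and 3.80, and all other tested probes are at 2.64 or less.

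Reprogrammed lung cells varied more than either mammary group at both probes. Reprogrammed lung replicate 1 was the lowest and replicate 3 the highest, 2.69 apart at UCSF034_000901 and 1.93 apart at UCSF034_000903. Replicate 1 was also the lowest of its group at the probes most like the pair, which are named below. Choosing those probes by their correlation with the pair favoured this, so nothing is read from it. As a share of the geometric mean signal of adult mammary cells, UCSF034_000901 was at 14.3%, 33.2% and 92.5% on replicates 1, 2 and 3, and UCSF034_000903 at 13.1%, 24.5% and 50.2%. Adult lung replicate 3 was at 15.4% and 13.8% of that mean, next to reprogrammed lung replicate 1. The SD of 1.35 at UCSF034_000901 was larger than that of 94.8% of the tested probes in this group, and the SD of 0.97 at UCSF034_000903 larger than that of 88.9%. In adult mammary cells the corresponding shares were 61.7% and 86.6%, and in reprogrammed mammary cells 79.2% and 76.1%. In adult lung UCSF034_000901 had the largest SD of the 947 probes and UCSF034_000903 ranked 4, where the choice of the pair asked for a raised array. Reprogrammed lung replicate 1 was on slide 3, replicate 2 on slide 2 and replicate 3 on slide 1, and each slide also held an array of both mammary groups. On slide 3 the adult mammary array was the highest of its group at both probes, at 13.04 and 10.68, and the reprogrammed mammary array was at 12.18 and 9.24. Slide 3 held no other reprogrammed lung array, so slide and sample cannot be told apart for reprogrammed lung replicate 1.

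Differences among the 3 groups with high signal were not part of the rule, although asking for a high signal in all 3 leaned towards small differences among them. They were tested with limma on all 12 arrays, with p-values adjusted over 947 probes within each of 3 comparisons. Reprogrammed lung minus adult mammary was -1.50 ± 1.30 at UCSF034_000901 (log2, SE, limma adjusted p = 0.618) and -1.98 ± 0.94 at UCSF034_000903 (SE, limma adjusted p = 0.268). Reprogrammed mammary minus adult mammary was -0.48 ± 1.30 (SE, limma adjusted p = 0.897) and -1.17 ± 0.94 (SE, limma adjusted p = 0.502). Reprogrammed mammary minus reprogrammed lung was 1.02 ± 1.30 (SE, limma adjusted p = 0.748) and 0.81 ± 0.94 (SE, limma adjusted p = 0.730). None of the 6 differences passed the threshold of 0.05, where 4.33%, 8.98% and 0.211% of the tested probes did in the same order of comparisons. The 95% confidence intervals were wide. For reprogrammed lung minus adult mammary they ran from -4.42 to 1.41 at UCSF034_000901 and from -4.10 to 0.13 at UCSF034_000903, so the tests do not show that the groups were alike.

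Those standard errors carry the spread of the adult lung arrays, since the fit shares 1 variance per probe over the 4 groups. In a fit on the other 9 arrays, added after the data were seen, they fell to 0.65 at UCSF034_000901 and 0.53 at UCSF034_000903, and the differences stayed the same. Reprogrammed lung minus adult mammary at UCSF034_000903 then had a 95% confidence interval from -3.24 to -0.73 and an unadjusted p of 0.00728, with a limma adjusted p of 0.101. At UCSF034_000901 that interval ran from -3.04 to 0.03 (limma adjusted p = 0.274). At UCSF034_000903 every adult mammary array lay above every reprogrammed lung array and every reprogrammed mammary array. Of the tested probes, 7.18% had every reprogrammed lung array, and 11.7% every reprogrammed mammary array, below every adult mammary array. At UCSF034_000901 adult mammary overlapped both reprogrammed groups. Within slides 1, 2 and 3, reprogrammed lung minus adult mammary was 0.22, -1.51 and -3.21 at UCSF034_000901 and -0.53, -1.87 and -3.56 at UCSF034_000903. Reprogrammed mammary minus adult mammary was 0.37, -0.95 and -0.86 at the former and -0.52, -1.57 and -1.44 at the latter. The sign at UCSF034_000901 thus differed between slide 1 and the other slides, while at UCSF034_000903 it was the same on all 3.

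The order of the group means was the same at both probes: adult mammary, reprogrammed mammary, reprogrammed lung, adult lung. No neighbours in that order differed past the threshold among the 3 high groups. The reprogrammed groups fell further below adult mammary at UCSF034_000903 than at UCSF034_000901, by 0.48 for reprogrammed lung and 0.69 for reprogrammed mammary cells on the log2 scale, and the difference between the probes was not tested.

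The pair moved together from array to array. Over the 12 arrays their log2 signals had Pearson's r = 0.984 and Spearman's rho = 0.921, and over the 9 arrays outside adult lung r = 0.922. After each group's mean was subtracted, r was 0.940 over those 9 arrays, so arrays with more signal than their group at one probe had more at the other. These are descriptions. Both probes were chosen for the same pattern over the groups and the adult lung arrays, which favoured a high r over the 12 arrays. The arrays also share slides, labelling and scaling, and the floor sets both low values of UCSF034_000903.

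**Figure D3:**
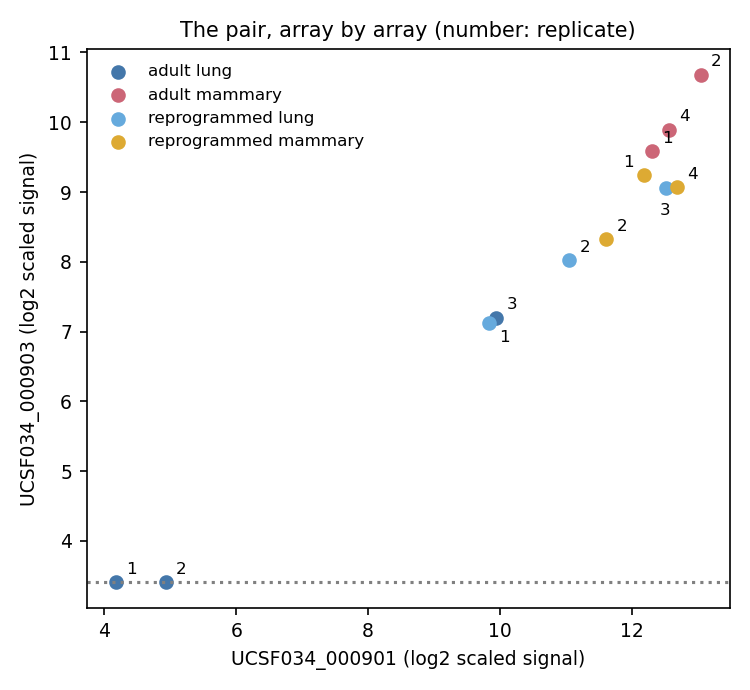
Log2 scaled signal of UCSF034_000901 (x axis) against UCSF034_000903 (y axis), 1 point per array, coloured by group with the replicate number beside it, and the floor at 3.41 dotted. Adult lung replicate 3, at 9.94 and 7.20, lies beside reprogrammed lung replicate 1, at 9.83 and 7.13, while adult lung replicates 1 and 2 lie on the floor of UCSF034_000903 and at 4.17 and 4.93 for UCSF034_000901, above it.

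By Pearson's r over the 12 arrays, UCSF034_000903 was the probe most like UCSF034_000901 among the 947 tested, and the reverse held too. By Spearman's rho UCSF034_000903 ranked 10 for UCSF034_000901, and UCSF034_000901 ranked 4 for UCSF034_000903. The pair was chosen for its pattern over these arrays, so these ranks are a description. The next for UCSF034_000901 by Pearson's r were UCSF034_000849 (0.911), UCSF034_000850 (0.910), UCSF034_000911 (0.907) and UCSF034_000909 (0.901). For UCSF034_000903 they were UCSF034_000850 (0.927), UCSF034_000849 (0.907), UCSF034_000622 (0.889) and UCSF034_000911 (0.874). At each of these 5 like probes all 9 arrays of the other groups lay above adult lung replicates 1 and 2, as at the pair. That held at 16.8% of all probes tested, and choosing the 5 by correlation with the pair favoured it. Their group means differed by less than those of the pair. For UCSF034_000849 the mean was 4.94 ± 0.31 in adult lung against 7.84 ± 0.19 in adult mammary cells, and 7.08 ± 1.04 and 7.72 ± 0.60 in the reprogrammed lung and mammary groups (SD, n = 3). UCSF034_000911 had 6.77 ± 0.38, 8.75 ± 0.13, 8.42 ± 0.92 and 9.16 ± 0.37 in the same order. Reprogrammed lung replicate 1 was the lowest of its group at all 5 like probes, and the choice by correlation leaned towards this. At UCSF034_000849 it was at 5.88, against 7.57 and 7.78 on replicates 2 and 3. On adult lung replicate 3 the 5 like probes exceeded the mean of replicates 1 and 2 by 0.20 to 0.65, against 5.39 and 3.80 at the pair, whose choice asked for a rise. The excess was 0.53 at UCSF034_000849, 0.56 at UCSF034_000850, 0.58 at UCSF034_000909 and 0.65 at UCSF034_000911. These lay above the 95th percentile of the tested probes, 0.44, while UCSF034_000622 at 0.20 did not.

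The rise on adult lung replicate 3 can also be set against the distance between the adult tissues. On the linear scale, the excess of replicate 3 over replicates 1 and 2 was 15.1% of the excess of adult mammary over the same arrays at UCSF034_000901 and 13.0% at UCSF034_000903. It was 5.96% at UCSF034_000849, 5.91% at UCSF034_000850, 14.5% at UCSF034_000909, 15.9% at UCSF034_000911 and 12.9% at UCSF034_000622. Of the 38 tested probes whose adult mammary mean was more than 2 above adult lung replicates 1 and 2 on the log2 scale, the pair included, the median was 2.03%, with quartiles of 0% and 7.89%. The share was thus 7.89% or less at most of the 38 probes. The signals were floored, so a probe at the floor on all adult lung arrays has a share of 0% whatever its signal below the floor. UCSF034_000909, UCSF034_000911 and UCSF034_000622 had shares near those of the pair. UCSF034_000622 was not among the 38, with a linear signal of 56.8 in adult mammary cells against 26.7 on adult lung replicates 1 and 2. Both parts of each share use the same adult lung arrays, and the share was chosen after the data were seen. The pair was chosen for a high signal in adult mammary cells and a rise on 1 adult lung array, which are the parts of this share, so its place among the 38 is not a result.

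Of the 11 other probes within 5 serial numbers of the pair, 5 were not well above background on any array and 5 were tested. UCSF034_000899 was at the floor on adult lung replicates 1 and 2 and at 3.49 on replicate 3, with a mean of 6.79 ± 0.89 in adult mammary cells, and of 6.42 ± 1.01 and 6.68 ± 0.21 in the reprogrammed lung and mammary groups (SD, n = 3). Its floor-limited difference from adult lung was 3.35 ± 0.51 for adult mammary (SE, limma adjusted p = 0.00155), 2.98 ± 0.51 for reprogrammed lung (limma adjusted p = 0.00273) and 3.25 ± 0.51 for reprogrammed mammary cells (limma adjusted p = 0.00117). Of all probes tested, 14.9%, 20.2% and 24.9% were higher than in adult lung past the threshold in these comparisons. It shared the split of adult lung from the other groups with the pair, with r = 0.869 to each member. Its excess over the floor on adult lung replicate 3 was 0.646% of the adult mammary excess over the floor, and a rise below the floor would not be seen. UCSF034_000896 did not share that split. It had 4.50, 4.67 and 7.07 on adult lung replicates 1, 2 and 3, and means of 4.85 for adult mammary cells and 3.60 for either reprogrammed group. No reprogrammed mammary array was well above background. Relative to adult lung it was lower by 1.82 in reprogrammed lung (limma adjusted p = 0.0349) and by 1.81 in reprogrammed mammary cells (limma adjusted p = 0.0293). Adult mammary minus adult lung was -0.57 (limma adjusted p = 0.547), with its mean above adult lung replicates 1 and 2. UCSF034_000904, which was not tested, was well above background on adult lung replicate 3 alone, at 5.81, and at the floor on the other 11 arrays. It is named because of these values. UCSF034_000900, UCSF034_000905 and UCSF034_000906 stayed between 3.41 and 4.68 on every array. Close to the floor, reprogrammed lung was above adult lung by 0.87 at UCSF034_000900 (limma adjusted p = 0.0237) and by 0.54 at UCSF034_000905 (limma adjusted p = 0.0381). No other difference of these probes from adult lung passed the threshold.

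**Figure D4:**
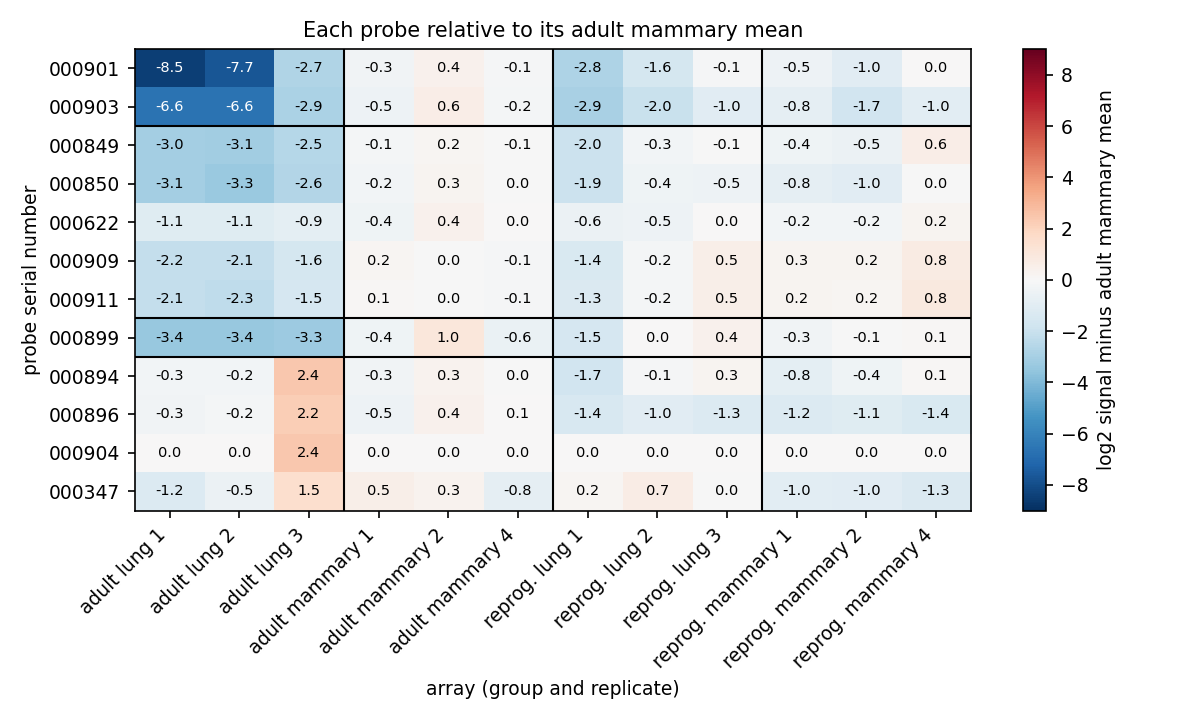
Log2 signal of 12 probes (rows, by serial number) on the 12 arrays (columns), each minus that probe's adult mammary mean, coloured blue below and red above that mean, with the value printed in each cell. From the top, blocks hold the pair, the 5 probes most like either member, the neighbour UCSF034_000899, and 4 of the probes raised on adult lung replicate 3. On adult lung replicates 1 and 2 the pair is far below the adult mammary mean, as is UCSF034_000899, and on replicate 3 it is nearer to that mean but still below it, while the probes of the last block are above theirs.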

How the data were processed

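The authors deposited linear spot intensities, the background-subtracted processed signal of Agilent Feature Extraction, whose version is 10.5.1.1 per the file headers and 10.1 per the submitters' processing notes. The file of reprogrammed lung replicate 3 has no header and rounded signals. The authors' value table holds log2 values for 2270 probes, both members included, with column medians from 4.97 to 5.00; each column followed the log2 median spot signal of its array (r at least 0.997, across probes), and its scaling and centring stay unknown. Its values were used as an alternative.

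Outlier spots (164 to 345 per array) were left out, except at 1 probe that had no other spots on 1 array, and 0 spots were saturated. Each array was divided by its 75th percentile, taken from the 631 probes that were well above background on every array. Signal was then floored at 10.6 (3.41 in log2), the typical 5th percentile of spots well above background, and log2 values of a probe's spots were averaged. A probe was well above background where more than 0.5 of its spots were. Limma 3.58.1 in R 4.3.3 fitted 4 group means to 947 probes (8 residual degrees of freedom, Benjamini-Hochberg adjustment), after a check on simulated data. Other tools were the R package data.table (version 1.17.8), statmod 1.5.0, and matplotlib 3.10.9 with pandas 2.3.3 in Python 3.11.15. The number of arrays limits the precision.

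Named were the 2 members, tested probes within 5 serial numbers, and the 5 most like each member by Pearson's r; other names were chosen after their values were seen. The members and lists were chosen with earlier results of these data known. Marker miRNAs matched 0 probes. Slides were read from array identifiers and were scanned separately, per the file headers. There were 0 columns of other samples. Spot means were missing, so normexp used spot medians.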

Additional observations from a re-analysis of the deposited data

How the results depend on the processing

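Across 186 alternative values of the 6 differences among the high groups, 0 passed the threshold (limma, adjusted p from 0.0623 to 1) and 1 reversed: reprogrammed mammary minus reprogrammed lung at UCSF034_000903 was -0.036 with no scaling. Leaving out 1 array moved reprogrammed lung minus adult mammary between -2.20 and -0.85 at UCSF034_000901 and between -2.48 and -1.51 at UCSF034_000903. It moved reprogrammed mammary minus adult mammary between -0.74 and -0.21 and between -1.41 and -0.86, and reprogrammed mammary minus reprogrammed lung between 0.37 and 1.72 and between 0.34 and 1.30. Differences from adult lung stayed positive in all 25 alternatives of each, a direction that the choice of the probes had set. Some of the 25 left out an array of a group outside the comparison and could not change the difference. Leaving out 1 array moved adult mammary minus adult lung between 5.20 and 8.08 at UCSF034_000901 and between 4.75 and 6.65 at UCSF034_000903, reprogrammed lung minus adult lung between 3.70 and 6.58 and between 2.77 and 4.67, and reprogrammed mammary minus adult lung between 4.72 and 7.60 and between 3.58 and 5.47. Adult mammary minus adult lung at UCSF034_000903 was 3.58 after normexp background correction, and reprogrammed mammary minus adult lung was 2.57. Without adult lung replicate 3 and reprogrammed lung replicate 1, reprogrammed lung minus adult lung was 7.23 and 5.14.

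The excess of adult lung replicate 3 over the mean of replicates 1 and 2 was 4.05 and 2.38 in the authors' table and 3.87 and 1.40 after normexp. At UCSF034_000903 it was 6.0 with no common floor and 4.81 with no scaling. Among tested probes it ranked between 1 and 2 for UCSF034_000901 and between 1 and 9 for UCSF034_000903 over the 10 alternatives, and replicate 3 was above both other arrays in each. The choice of the pair had asked for this rise. Of the 5 most like probes, 1 was shared for each member with Spearman's rho, and 3 and 4 without adult lung replicate 3. The causes were not tested.

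The adult and reprogrammed lung groups share their replicate numbers, and so do the adult and reprogrammed mammary groups. Of 14 same-numbered pairs of arrays, 4 had a correlation of deviations over 0.1, and the range was from -0.45 to 0.27. Pairs with different numbers were not set beside these, so the values cannot decide if the numbers mark matched samples. With the replicate block, reprogrammed lung minus adult mammary was -2.64 at UCSF034_000901 (limma, adjusted p = 0.109) and -2.86 at UCSF034_000903 (limma, adjusted p = 0.0623), and no call changed.

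The floor limits UCSF034_000903 in adult lung, and 3 arrays a group leave wide intervals.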

Other observations

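In the authors' own value table, which is not floored as above, UCSF034_000901 stood at 5.76, 6.12 and 9.99 on adult lung replicates 1, 2 and 3 and UCSF034_000903 at 4.94, 5.25 and 7.48 (log2). For UCSF034_000901 its mean was 12.92 ± 0.57 in adult mammary cells, and 11.13 ± 1.39 and 11.97 ± 0.49 in the reprogrammed lung and mammary groups (SD, n = 3). For UCSF034_000903 they were 10.13 ± 0.64, 8.12 ± 0.72 and 8.82 ± 0.47 in the same order. At these 2 probes adult lung replicate 3 again lay beside reprogrammed lung replicate 1, which was at 9.90 and 7.47.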
